A study of Homo sapiens with 6 samples.

Results

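The genes described here build the carriers that move proteins between the endoplasmic reticulum (ER) and the Golgi. They were chosen by gene name among the protein-coding rows of the deposited table, which gave 51 of its 58735 genes: 13 COPII genes, 9 COPI genes, 10 TMED genes, 16 TRAPPC genes and 3 KDEL receptor genes. RNA-seq read counts were available for 6 libraries from RPE-1, an immortalised human retinal pigment epithelial cell line, in which CETN2 carries a GFP tag to show centrioles and PLK4 is under an rtTA-driven, doxycycline-inducible promoter. In 3 libraries the cells had received an siRNA against SON (siSON), and in 3 a scramble siRNA (siControl). Doxycycline at 1 µg/mL had been given to all 6, so every library, controls included, comes from cells with induced PLK4. The labels do not say whether the 3 replicates of a group were separate cultures, so p-values measure only the spread between these libraries. The comparison asked how the mRNA levels of this transport machinery differ when SON, a nuclear speckle protein needed for splicing, is depleted, and the study's title names intracellular trafficking.

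COPII is the coat that buds cargo out of the ER. Its GTPase SAR1 recruits the inner coat of SEC23 and SEC24, in which SEC24 selects cargo, and then the outer cage of SEC13 and SEC31; SEC16 organises the sites where this happens. COPI, or coatomer, is recruited as a whole by ARF GTPases and returns material from the Golgi to the ER. TMED (p24) proteins are transmembrane cargo adaptors that cycle in both kinds of carrier, KDEL receptors bring escaped ER residents back, and TRAPP complexes tether carriers and activate RAB1 or RAB11. Many of the subunits exist as pairs of paralogs, so that a coat can be built from alternative copies.

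Library totals ran from 54572365 to 69764836 counts. SON itself had 295, 313 and 284 CPM (read counts relative to the library's total after TMM scaling) in the siControl libraries and 67.9, 69.9 and 65.0 CPM in the siSON libraries. Its log2 fold change, always given as siSON over siControl, was -2.14 (SE 0.06, edgeR adjusted p 6.78e-10). Of the retinal pigment epithelium markers examined, OTX2 (19.7 to 20.2 CPM in siControl), MITF (21.4 to 22.3 CPM) and BEST1 (7.71 to 8.59 CPM) were counted, whereas RPE65 did not exceed 0.258 CPM and TYR and TTR were at 0 in all libraries. The summed level of 8 markers of leukocytes, endothelium, muscle and neural cells was 8.36 to 9.34 CPM in siControl and 9.34 to 10.6 CPM in siSON. Its members went opposite ways: SNAP25 rose from 5.05 to 9.10 CPM on average, while PTPRC (1.44 to 0.292 CPM), PECAM1 (1.14 to 0.520 CPM) and DES (0.965 to 0.0708 CPM) fell, and CD3E was at 0 throughout. The sum of the 10 retinal pigment epithelium markers was 51.9 to 53.8 CPM in siControl and 74.4 to 83.6 CPM in siSON; OTX2, MITF and BEST1 rose, whereas PMEL (2.06 to 0.200 CPM) and SERPINF1 (0.876 to 0.360 CPM) fell. The part of these differences in the results was not tested, and in bulk RNA fewer cells of a type cannot be told apart from less RNA per cell. Replicate 1 stood apart in both groups: the chi-square per gene between replicates was 16.6 to 23.6 for pairs that included it and 6.68 for replicates 2 and 3 of either group.

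Most of the transport genes changed, and more rose than fell. Of the 48 that passed the filter on low counts, 30 rose and 9 fell (edgeR quasi-likelihood test, adjusted p under 0.05 over all genes tested), and 9 did not pass. The other 3 were barely counted: SEC16B had 0 to 5 counts per library, TMED6 0 to 8 and TRAPPC3L 0 to 3. A change of any kind was common in this experiment, being called for 71.7% of all 16591 genes tested and 77.4% of the 13008 protein-coding ones, and the 81.3% of the transport genes lies near these shares. The directions were divided differently: 62.5% of the transport genes rose and 18.8% fell, where 35.2% of all genes rose and 36.5% fell, and 40.3% of protein-coding genes rose and 37.1% fell. The median log2 fold change was 0.30 for the transport genes, -0.027 for all genes tested and 0.028 for protein-coding genes. The split depended on the scaling. It was 22 higher and 13 lower when libraries were scaled by total counts alone, which moved the log2 fold changes of all genes by a median of -0.20. Of all 16591 genes 4441 then rose, and the median log2 fold change was -0.22, beside 0.10 for the transport genes. Under cyclic loess normalization, which moved all genes by a median of 0.14, it was 25 higher and 12 lower. Of all genes 6044 then rose, with a median of 0.038, while the median of the transport genes went down to 0.18. No set of similarly counted genes was compared. Large changes were few: 3 genes rose and 3 fell by at least 2-fold, while 8.72% of all genes rose and 20.5% fell that far. The siSON and siControl values did not overlap for 41 of the 48 genes, or 85.4%, compared with 79.9% of protein-coding genes and 75.1% of all genes tested. Without replicate 1 of siSON, 29 transport genes rose and 11 fell, where 11783 of 17080 genes tested were called, 5814 of them higher. Without replicate 1 of siControl, 28 rose and 10 fell, where 11535 of 16865 genes tested were called, 5560 of them higher.

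**Figure D1:**
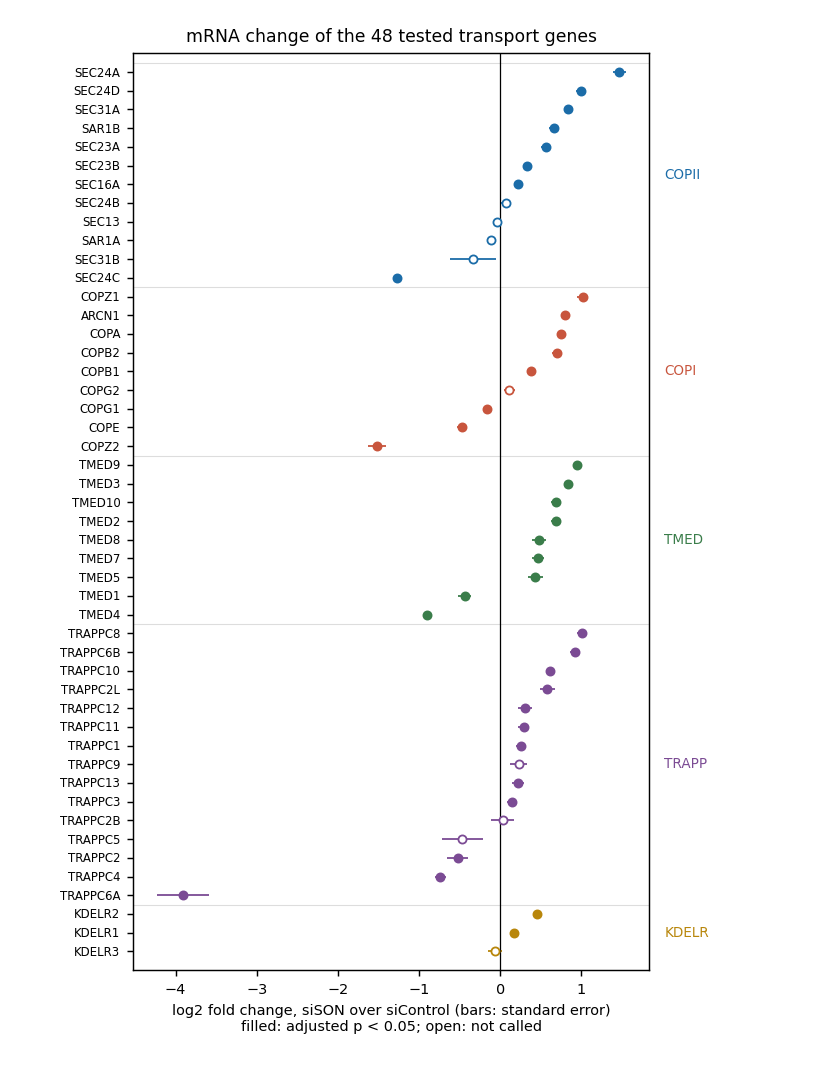
Log2 fold change of siSON over siControl for the 48 tested genes, grouped by complex and ordered by size, with bars for the standard error; filled points passed an adjusted p of 0.05 and open points did not. In each complex most points lie to the right of 0, and the far left is taken by TRAPPC6A (-3.91), COPZ2 (-1.52), SEC24C (-1.27) and TMED4 (-0.90).

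The promoters of the transport genes, whatever their change, were read for shared letters. RefSeq sequences from 250 bases before to 50 after the annotated start (GRCh38.p14) were at hand for 45 of the 51 genes, and not for KDELR2, SEC24D, TMED4, TMED9, TRAPPC8 and TRAPPC9. The string TGACGTGG, the unfolded protein response element with the ACGT core that basic leucine zipper factors such as XBP1 and ATF6 recognise, was found on either strand in 8 of the 45 (17.8%), against 253 of 27305 genes (0.927%) and 160 of 14900 protein-coding genes of the table (1.07%). The 9 sites in these 8 genes are shown here as 30 bases each, 5′ to 3′ on the strand of the gene, with the match in capitals (CCACGTCA is the same string on the opposite strand):
COPA, chr1:160343227-160343256, minus strand: gagagggtcgcTGACGTGGaggcgtccgaa
COPB1, chr11:14499841-14499870, minus strand: cccacccccttCCACGTCAgccaaggactc
COPB2, chr3:139389825-139389854, minus strand: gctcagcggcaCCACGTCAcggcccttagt
COPB2, chr3:139389632-139389661, minus strand: tcccggaagttCCACGTCAgtcagtctgac
SEC16A, chr9:136484707-136484736, minus strand: tggccctggtgCCACGTCAgccggactgaa
SEC16B, chr1:177984297-177984326, minus strand: ttctgggcagcTGACGTGGcaacacagttt
SEC23A, chr14:39103221-39103250, minus strand: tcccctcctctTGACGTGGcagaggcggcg
SEC24A, chr5:134648595-134648624, plus strand: gtgagagtcggTGACGTGGcggcgaggccg
KDELR3, chr22:38468039-38468068, plus strand: ggccgccctggCCACGTCAccgcccggcca
Of the 7 tested genes among them, COPA, COPB1, COPB2, SEC16A, SEC23A and SEC24A rose (log2 fold changes 0.75, 0.38, 0.70, 0.23, 0.56 and 1.47) and KDELR3 had -0.06; under cyclic loess normalization COPB1 (0.049) and SEC16A (-0.047) did not pass the threshold. For comparison, 62.5% of all tested transport genes rose. The string was in 125 of the 10297 tested protein-coding genes with a promoter at hand (1.21%). Of these 125, 47.2% rose, 32.0% fell and the median log2 fold change was 0.21. The values were 40.3%, 37.1% and 0.028 for all protein-coding genes tested, including those without a promoter at hand. Values for the 10297 genes alone were not computed, and the differences were not tested. The string was 1 of 7 searched on both strands and was singled out after the counts were seen. CACGTG, which neither contains nor lies inside TGACGTGG, was found in 4 of the 45 genes (8.89%, against 11.0% of protein-coding genes), TGACGTCA in 2 (4.44%, against 3.01%), and the ER stress elements ERSE-II and ERSE, a looser form of ERSE and the ZBTB33 palindrome in 0. A match is a description of the sequence; binding was not measured.

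Among the COPII genes the cargo-selecting SEC24 paralogs changed most, and in opposite directions. Of the 12 tested, 7 rose, 1 fell and 4 did not pass, with a median log2 fold change of 0.28. The 66.7% called lies below the 77.4% of protein-coding genes. The split was 6 higher and 3 lower both with total counts alone and under cyclic loess. The number that fell was 2 without siControl replicate 1 and 3 without siSON replicate 1. SEC24A (ENSG00000113615, chromosome 5, 134648789 to 134727823) had 23.5, 25.5 and 21.4 CPM in siControl and 62.9, 65.2 and 67.2 CPM in siSON. Every siSON library was more than 2-fold above every siControl library. The means were 23.5 ± 2.06 and 65.1 ± 2.14 CPM (SD, n = 3 each). On the log2 scale the change was 1.47 with an SE of 0.08 (edgeR adjusted p 2.24e-08), and this was the largest rise of all 48 genes. SEC24C (ENSG00000176986, chromosome 10, 73744384 to 73772161) went the other way, from 223, 226 and 223 CPM to 91.2, 96.2 and 92.6 CPM. Only 41.6% of its siControl level was counted in siSON (log2 fold change -1.27, SE 0.05, adjusted p 3.92e-09). SEC24D had 111, 129 and 126 CPM in siControl and 242, 233 and 255 CPM in siSON (1.00 on the log2 scale, SE 0.06, adjusted p 1.29e-07). SEC24B, the remaining paralog, had 63.4, 64.9 and 65.4 CPM against 70.5, 67.2 and 65.2 CPM; the groups overlapped (0.07, adjusted p 0.305).

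The SEC24 family therefore differed in its make-up. Per kilobase of merged exons, SEC24C made up 60.1 ± 0.933% of the family's summed level in siControl and 27.3 ± 0.928% in siSON (SD, n = 3 each). SEC24D rose from 17.6 ± 1.05% to 38.3 ± 1.26% of the sum and SEC24A from 4.66 ± 0.376% to 14.1 ± 0.366%. SEC24B held 17.7 ± 0.210% and 20.2 ± 0.968%. The summed level itself was 69.9 ± 1.42 CPM per kb in siControl and 64.0 ± 0.722 CPM per kb in siSON. With the length of a single representative transcript in place of merged exons, the SEC24C share went from 49.3% to 18.9%, that of SEC24D from 30.0% to 55.2%, and that of SEC24A from 3.70% to 9.45%. With that length SEC24B went from 16.9% to 16.4%, so the direction of its small shift depended on the length used, as did the order of the shares in siControl. The direction of the summed level depended on it too, at 101 ± 2.90 CPM per kb in siControl and 109 ± 2.15 CPM per kb in siSON.

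**Figure D2:**
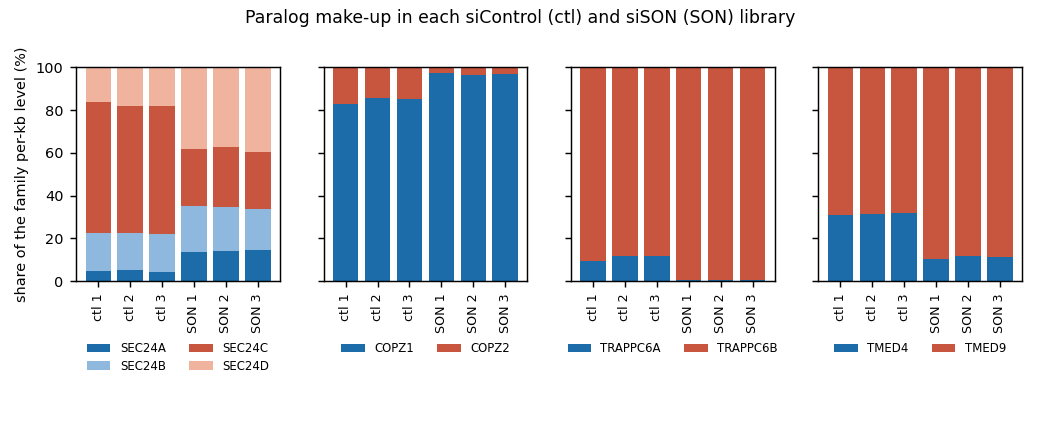
Share of each paralog in the summed per-kb level of its family (%, from 0 to 100), with 1 bar per library, for the SEC24, COPZ, TRAPPC6 and TMED alpha families. In the SEC24 panel the SEC24C segment covers 59.4% to 61.1% in siControl and 26.8% to 28.4% in siSON.

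SEC23, the partner that activates the SAR1 GTPase, rose in both forms: SEC23A had 151 to 169.8 CPM in siControl and 226 to 247 CPM in siSON (log2 fold change 0.56, adjusted p 6.07e-06), and SEC23B had 64.2 to 66.2 CPM and 81.5 to 82.3 CPM (0.33, adjusted p 0.000147). Of the GTPases, SAR1B had 44.2, 42.5 and 45.0 CPM in siControl and 69.7, 68.3 and 70.0 CPM in siSON (0.66, SE 0.06, adjusted p 1.04e-06). SAR1A, the more highly counted copy, had 201, 212 and 217 CPM against 206, 187 and 190.1 CPM (-0.11, adjusted p 0.0930); it passed the threshold as a fall with total counts alone (-0.31), under cyclic loess (-0.43), with a mean count of at least 50 (-0.17), without siControl replicate 1 (-0.17) and without siSON replicate 1 (-0.14). SAR1B made up 11.7 ± 0.469% of the summed SAR1 level per kb in siControl and 18.4 ± 0.681% in siSON. SAR1B and SEC24A lie head to head on chromosome 5 and their annotated spans overlap by 483 bp on opposite strands, 385 bp of it exonic for both; the strand setting of the counting is not given, so reads there cannot be told apart. In the outer cage SEC31A rose from 311, 309 and 319 CPM to 586, 538 and 554 CPM (0.84, SE 0.05, adjusted p 5.62e-08), whereas its cage partner SEC13 had 140.2 to 145 CPM and 136 to 145 CPM (-0.04, adjusted p 0.504; called lower with total counts alone, -0.24, and under cyclic loess, -0.32). SEC13 also serves in the nuclear pore. SEC31B, a weakly counted paralog, had 9.45, 8.14 and 6.61 CPM against 9.83, 4.88 and 4.37 CPM (-0.34, adjusted p 0.316). Its siSON replicate 1 lay above all siControl libraries, and without that library the log2 fold change was -0.79 (adjusted p 0.000617). SEC16A had 115, 132 and 124 CPM against 139, 147 and 148 CPM (0.23, SE 0.06, adjusted p 0.00527), a call that was lost with total counts alone (0.029) and under cyclic loess (-0.047).

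Coatomer is recruited as a whole complex, and its subunits did not change alike. Of the 9 genes, 5 rose, 3 fell and 1 did not pass, with a median log2 fold change of 0.38. Calls covered 88.9% of them, against 77.4% of protein-coding genes. COPZ1 (ENSG00000111481, chromosome 12, 54301202 to 54351849), which encodes the small zeta subunit, had 149, 154 and 165 CPM in siControl and 344, 296 and 309 CPM in siSON. The lowest siSON library was well above the highest siControl library, a difference of 1.02 on the log2 scale (SE 0.07, adjusted p 1.27e-07). Its paralog COPZ2 (ENSG00000005243, chromosome 17, 48026167 to 48038030), fell from 14.3, 12.2 and 13.8 CPM to 4.32, 5.08 and 4.72 CPM (-1.52, SE 0.11, adjusted p 2.62e-07). COPZ2 thus went from 15.4 ± 1.32% to 3.06 ± 0.458% of the summed zeta level per kb.

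The cage subunits alpha and beta prime rose: COPA from 336 ± 5.15 to 566 ± 16.4 CPM and COPB2 from 325 ± 18.9 to 528 ± 9.20 CPM (means ± SD of 3 libraries; log2 fold changes 0.75 and 0.70). Epsilon, encoded by COPE, fell from 88.0 ± 2.37 to 63.3 ± 1.03 CPM (-0.48, SE 0.05, adjusted p 9.75e-06), although it sits in the cage with these same subunits. Of the adaptor-like subunits, ARCN1 (delta) had 233, 240.5 and 251 CPM against 419.5, 417 and 432 CPM (0.81, SE 0.05, adjusted p 6.88e-08) and COPB1 (beta) rose by less (0.38, adjusted p 5.09e-05; 0.049 and not past the threshold under cyclic loess). For gamma, COPG1 fell from 251, 233 and 251 CPM to 229, 215 and 213 CPM (-0.16, adjusted p 0.0164), a call lost without siSON replicate 2 (-0.14) or without siSON replicate 3 (-0.13). COPG2 had 23.3 ± 0.578 and 25.3 ± 1.24 CPM (0.12, adjusted p 0.168; -0.082 with total counts alone). Seen per kilobase, the 7 coatomer subunits that are single genes or the major paralog (COPA, COPB1, COPB2, ARCN1, COPE, COPG1 and COPZ1) lay between 30.5 and 57.9 CPM per kb in siControl and between 22.0 and 101 CPM per kb in siSON. On that scale COPE was the lowest in both groups and ARCN1 the highest. The order depended on the length used: per kilobase of a representative transcript COPB1 (58.8) was lowest and COPB2 (96.8) highest in siControl, and COPE (55.5) lowest and COPZ1 (167) highest in siSON.

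**Figure D3:**
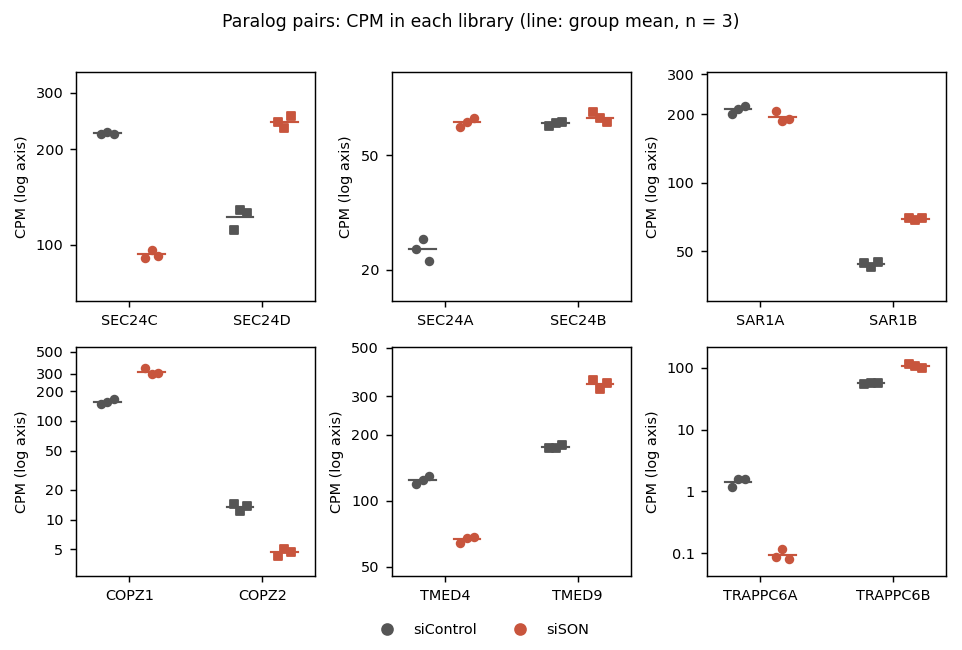
CPM of 6 paralog pairs in each library on a log axis, siControl in grey and siSON in red, with a line at the mean of the 3 libraries. SEC24C, COPZ2, TMED4 and TRAPPC6A are lower in every siSON library, while SEC24D, SEC24A, SAR1B, COPZ1, TMED9 and TRAPPC6B are higher in every one.

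All 9 tested TMED genes were called, 7 upward and 2 downward, with a median log2 fold change of 0.48. A call was common, as 77.4% of protein-coding genes had one. Against a 1.5-fold change 4 TMED genes were higher and 1 lower, where 6126 of all 16591 genes tested were called. The split was 6 and 2 with total counts alone and under cyclic loess, where TMED5 did not pass. The delta member TMED10 and the beta member TMED2, which form the core of p24 complexes, rose by the same amount: TMED10 from 207, 211 and 209.7 CPM to 357, 327 and 324 CPM, and TMED2 from 335, 345 and 360.5 CPM to 546, 542 and 583 CPM (log2 fold change 0.68 for each, SE 0.05). The alpha members diverged. TMED9 (ENSG00000184840, chromosome 5, 177592158 to 177596124) had 174, 175 and 179 CPM in siControl and 354, 325 and 344 CPM in siSON (0.95, SE 0.05, adjusted p 2.81e-08), the largest rise of this family. TMED4 (ENSG00000158604, chromosome 7, 44577894 to 44582287) had 119.7, 125 and 129 CPM in siControl and 64.2, 67.7 and 68.8 CPM in siSON (-0.90, SE 0.06, adjusted p 9.44e-08), the largest fall. Neither gene's groups overlapped, and the TMED4 share of the summed alpha level per kb went from 31.4 ± 0.515% to 11.3 ± 0.711%. Of the gamma members, TMED3 rose by 0.84, TMED7 by 0.46 and TMED5 by 0.43 on the log2 scale, and TMED1 fell from 31.5 ± 2.24 to 23.3 ± 1.78 CPM (-0.44, adjusted p 0.000612). TMED7 shares its span with the read-through gene TMED7-TICAM2. TMED8, which has the GOLD domain of the family, rose by 0.48 (adjusted p 0.000535).

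The KDEL receptors moved little. KDELR2 had 241, 249 and 252 CPM in siControl and 347, 327 and 340.4 CPM in siSON (log2 fold change 0.45, SE 0.05, adjusted p 6.25e-06), and it did not pass under cyclic loess (0.099). KDELR1 had 249.8, 257 and 244 CPM against 284, 275 and 286 CPM (0.17, adjusted p 0.00695), but its value was -0.028 with total counts alone and -0.17, then called as a fall, under cyclic loess. KDELR3, the most weakly counted receptor, had 34.8, 37.9 and 39.8 CPM against 31.9, 36.8 and 39.1 CPM, with overlapping groups (-0.06, SE 0.09, adjusted p 0.535; called lower with total counts alone, -0.26).

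A change was called for 80% of the 15 tested TRAPP genes, near the 77.4% of protein-coding genes. Among the 15, 9 rose, 3 fell and 3 did not pass, with a median log2 fold change of 0.23. This count was sensitive to the scaling, at 4 higher and 4 lower with total counts alone and 9 and 3 under cyclic loess, where TRAPPC1 and TRAPPC3 were lost and TRAPPC9 and TRAPPC2B gained. All 4 genes particular to TRAPPIII, the form linked to RAB1 and autophagy, were called higher, as were 40.3% of protein-coding genes. TRAPPC8 (ENSG00000153339, chromosome 18, 31829173 to 31953136) rose most, from 34.3, 35.0 and 36.2 CPM to 73.7, 69.2 and 69.1 CPM (1.01, SE 0.06, adjusted p 6.45e-08). TRAPPC11, TRAPPC12 and TRAPPC13 had small changes of 0.29, 0.31 and 0.22, and each missed the threshold with total counts alone (0.092, 0.11 and 0.028). TRAPPC13 also missed it without siControl replicate 1 (0.18), siControl replicate 2 (0.21) or siSON replicate 3 (0.20). Of the genes of TRAPPII, the form linked to RAB11, TRAPPC10 rose from 32.2 ± 0.392 to 49.4 ± 0.228 CPM (0.62, adjusted p 2.36e-06), and TRAPPC9 had 9.73, 8.57 and 8.70 CPM against 9.92 to 11.6 CPM (0.23, adjusted p 0.0671; called higher under cyclic loess, 0.44).

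In the core shared by both forms, 4 of 9 tested genes were higher and 3 lower. These shares, 44.4% and 33.3%, lie near the 40.3% and 37.1% of protein-coding genes. TRAPPC6A (ENSG00000007255, chromosome 19, 45162928 to 45178237) was counted 83, 99 and 116 times in siControl and 5, 6 and 4 times in siSON. That is 1.43 ± 0.211 and 0.0937 ± 0.0199 CPM (-3.91 on the log2 scale, SE 0.33, edgeR adjusted p 8.96e-07), the largest change of all 48 genes but in a weakly counted one. Under cyclic loess it was -2.98. TRAPPC6A overlaps MARK4 on the other strand, and with the strand setting not given reads there cannot be told apart. Its paralog TRAPPC6B had 54.9, 56.6 and 57.4 CPM in siControl and 114, 105 and 99.8 CPM in siSON (0.92, SE 0.06, adjusted p 1.82e-07). TRAPPC6B was already 89.0 ± 1.26% of the summed per-kb level of the pair in siControl and was 99.6 ± 0.0931% in siSON. TRAPPC4 fell from 32.1 ± 1.33 to 19.3 ± 0.296 CPM (-0.74, SE 0.07, edgeR adjusted p 2.30e-06), and TRAPPC2 to 69.7% of its siControl level (-0.52, adjusted p 0.00293). The same limit holds for TRAPPC4, which overlaps RPS25 and SLC37A4 on the other strand. It is not confined to the genes marked here. Among others, COPA, TMED1, KDELR3, TRAPPC2L, PREB and RAB1A also have spans that overlap a gene on the other strand. TRAPPC2B, a single-exon gene copied from TRAPPC2, had 3.13 ± 0.146 and 3.20 ± 0.334 CPM (0.03, adjusted p 0.837; called higher under cyclic loess, 0.38); reads of these near-identical genes may be split between them. TRAPPC2L rose by 0.58 and TRAPPC1 by 0.25; TRAPPC1 overlaps CNTROB on the other strand and did not pass with total counts alone (0.057) or under cyclic loess (0.038). TRAPPC3 was at the threshold (0.15, adjusted p 0.0440) and had -0.047 with total counts alone and -0.045 under cyclic loess; it also missed the threshold without any 1 siControl library (0.11 to 0.16) and without siSON replicate 1 (0.11). TRAPPC5 had 0.708 to 1.31 CPM over all libraries and did not pass (-0.46, adjusted p 0.127; called lower with total counts alone, -0.66, and 0.010 under cyclic loess).

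The paralogs were next compared within each library as log2 ratios of per-kb counts, which do not depend on how libraries are scaled to each other. Of the 12 pairs listed, SEC16A with SEC16B could not be used because SEC16B was barely counted. In 10 of the other 11 pairs the ratios of the 3 siSON libraries lay entirely apart from those of the 3 siControl libraries. For the levels of single genes the groups lay apart in 79.9% of protein-coding genes and 75.1% of all genes tested. With 3 libraries against 3, a 2-sided exact permutation test cannot go below p = 0.1; each of these 10 pairs reached that value, or 0.11 after Benjamini-Hochberg adjustment over the 11 pairs. The ratio of TRAPPC6A to TRAPPC6B moved most, by -4.86 (SE 0.21), from -3.03 ± 0.192 to -7.89 ± 0.302 (SD, n = 3 each). COPZ1 to COPZ2 went from 2.46 ± 0.144 to 4.99 ± 0.227, a difference of 2.53 (SE 0.16). SEC24C to SEC24D reversed, from 1.77 ± 0.110 to -0.489 ± 0.0930, a difference of -2.26 (SE 0.083), with no overlap between libraries (1.71 to 1.90 against -0.565 to -0.385). TMED4 to TMED9 moved by -1.85 (SE 0.063), SEC24A to SEC24B by 1.41 (SE 0.098) and SEC31A to SEC31B by 1.26 (SE 0.37). SAR1A to SAR1B moved by -0.77 (SE 0.054). Smaller shifts were those of KDELR1 to KDELR2 and COPG1 to COPG2 (-0.28 for each) and of SEC23A to SEC23B (0.23). Only TMED5 to TMED7 overlapped, at -1.15 ± 0.0265 and -1.19 ± 0.103, a difference of -0.037 (SE 0.061; exact permutation p 0.70).

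The genes that fell differed in structure from those that rose. Taken from 1 representative transcript per gene in GENCODE 29, the median intron length had a median of 2283 bp over the 30 genes that rose and 677.5 bp over the 9 that fell, and the median GC content of the transcript was 44.0% and 53.1%. Protein-coding genes at large differed the same way, with 2190 bp and 1290.5 bp, and 47.4% and 53.7% GC. Across the 47 tested transport genes with introns, Spearman's rho of the log2 fold change with the median intron length was 0.47, and across 12699 protein-coding genes it was 0.25; with GC content it was -0.41 (48 genes) and -0.21 (13003 genes), and with the number of exons 0.13 and 0.045. These are descriptions across genes measured in the same libraries, and intron length and GC content go together in the genome. Of the 22 transport genes with a median intron of at least 2000 bp, 18 rose and 0 fell, against 46.8% and 27.5% of protein-coding genes with such introns. With total counts alone 15 of the 22 rose and 2 (SEC13 and KDELR3) fell, against 36.2% and 36.4%, and under cyclic loess 17 rose and 1 (SEC13) fell, against 46.2% and 25.8%. Of the 14 with a median intron under 1000 bp, 7 rose and 6 fell, against 27.3% and 54.7%; it was 4 and 6 with total counts alone and 4 and 7 under cyclic loess. The lowest median intron lengths were those of TMED4 (216 bp) and SEC24C (223 bp), which fell, and TRAPPC1 (276 bp), which did not. With the shortest intron of each gene in place of the median, Spearman's rho was 0.13 across the 47 transport genes. Across the 12699 protein-coding genes it was 0.15. TMED9, COPB2 and COPA rose with median introns of 668.5, 879 and 850 bp. These limits were chosen after the values were seen.

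**Figure D4:**
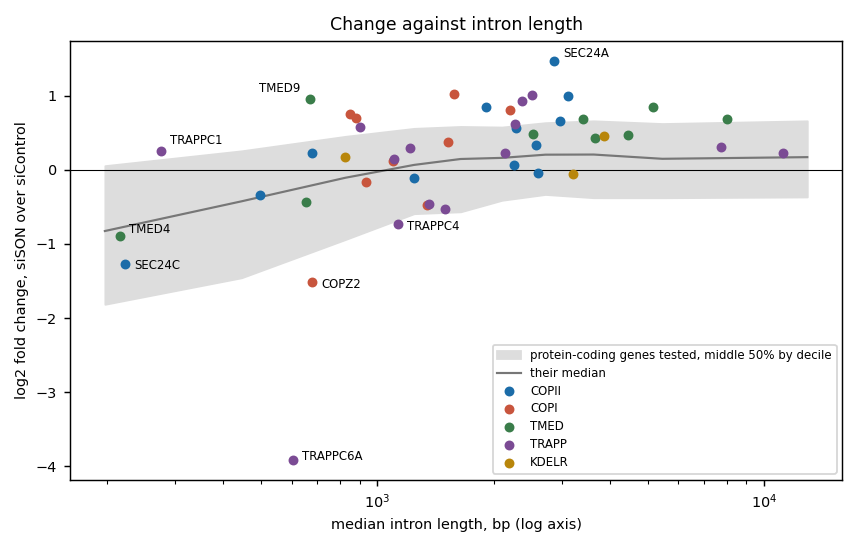
Log2 fold change against the median intron length in bp (log axis) for the 47 tested transport genes with introns, coloured by complex, over the median and the middle 50% of protein-coding genes in 10 bins of intron length. SEC24C and TMED4 lie at the short end with negative values, and no gene with a median intron of at least 2000 bp was called lower with the TMM scaling plotted (SEC13 and KDELR3 were with total counts alone, and SEC13 under cyclic loess).

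Intron length and change were also compared inside the pairs. In 10 of the 11 the paralog with the longer median intron had the higher log2 fold change, and in 9 of 11 the paralog with the lower GC content did. The 10 include TMED5 with TMED7, whose difference overlapped between groups and turned without siSON replicate 1 (0.013). No share for other gene pairs was computed, and the trend with intron length also held across protein-coding genes (Spearman's rho 0.25). Median introns were close in COPG1 and COPG2 (935 and 1097 bp) and in SEC24A and SEC24B (2865.5 and 2258 bp). Only some pairs joined a gene that rose to 1 that fell. Of these, SEC24D has a median intron of 3102.5 bp beside 223 bp in SEC24C and TRAPPC6B 2371 bp beside 605 bp in TRAPPC6A. COPZ1 has 1579 bp beside 677.5 bp in COPZ2 and TMED9 668.5 bp beside 216 bp in TMED4. The exception for introns was SEC23A with SEC23B (2290 and 2575 bp), and those for GC content were TMED4 with TMED9 and TMED5 with TMED7. A count per gene carries no record of splicing, which was not analysed here.

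Genes that work with these coats were examined from a separate list of 43. Of the 41 tested, 30 rose, 4 fell and 7 did not pass, with a median log2 fold change of 0.55. A change was called for 82.9% of them, near the 77.4% of protein-coding genes. By direction 73.2% rose and 9.76% fell, against 40.3% and 37.1% of protein-coding genes. The split was 26 and 7 with total counts alone, where 4441 of all 16591 genes tested rose. Under cyclic loess it was 27 and 8, where 6044 of all genes tested rose. PREB, the exchange factor that loads SAR1 with GTP at the ER, fell from 47.3 ± 2.64 to 22.7 ± 0.897 CPM (-1.06, SE 0.07, adjusted p 1.48e-07). ARFGAP2, a GTPase activator of ARF1 on coatomer, fell from 49.1, 50.2 and 49.8 CPM to 15.6, 16.4 and 15.01 CPM (-1.66, SE 0.07, adjusted p 4.92e-09). The others were the cargo receptors LMAN1 (-0.51) and ERGIC3 (-0.47). The related activator ARFGAP3 rose from 62.9 ± 1.39 to 118 ± 1.24 CPM (0.90, adjusted p 4.51e-08). Of the ARF GTPases, ARF1, ARF3, ARF4 and ARF5 rose by 0.36 to 0.70 and ARF6 had 0.01.

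All 4 tested organisers of ER exit sites rose, as did 40.3% of protein-coding genes. MIA2 (1.44, SE 0.13, edgeR adjusted p 3.64e-06) was ahead of MIA3 (0.91) and TFG (0.85). MIA2 had 26.7, 28.0 and 27.2 CPM against 92.7, 64.8 and 64.8 CPM, so that siSON replicate 1 was the highest. Of the 7 genes of the Dsl1 tether, which receives COPI carriers at the ER, and its SNAREs, 6 rose. This is 85.7%, against 40.3% of protein-coding genes. NBAS rose most (1.23), and USE1 had 0.05. RAB1A, a TRAPP substrate, had 97.7, 88.0 and 88.6 CPM in siControl and 286, 279 and 269 CPM in siSON, or 304% of the siControl level (SE of the log2 fold change 0.06, adjusted p 2.78e-09), and RAB1B rose by 0.47 on the log2 scale. Among 13 cargo receptors 7 rose and 2 fell. The 69.2% called lies below the 77.4% of protein-coding genes. By direction 53.8% rose and 15.4% fell, against 40.3% and 37.1%. LMAN2L had 19.3, 19.6 and 18.2 CPM against 51.2, 42.8 and 47.3 CPM (1.31, adjusted p 8.10e-08), opposite to its relative LMAN1. MCFD2, which works together with LMAN1 in exporting clotting factors, rose from 407 ± 29.5 to 885 ± 30.1 CPM (1.12, adjusted p 2.77e-08). CNIH2, a cornichon cargo receptor counted at 0.566 to 0.902 CPM in siControl and 3.05 to 3.74 CPM in siSON, had the largest change of the list (2.26, SE 0.21, edgeR adjusted p 2.27e-06). CNIH2 overlaps YIF1A on the other strand, and the strand setting is not given, so reads there cannot be told apart.

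**Figure D5:**
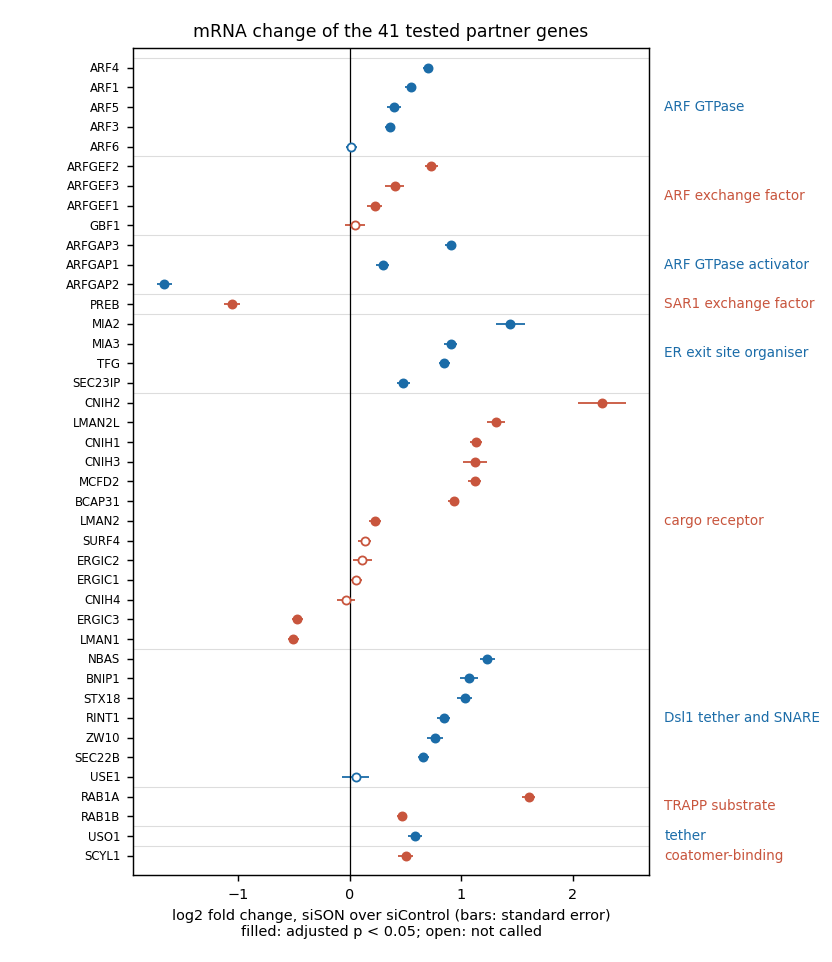
Log2 fold change of siSON over siControl for the 41 tested partner genes, grouped by role, with bars for the standard error; filled points passed an adjusted p of 0.05. PREB, ARFGAP2, LMAN1 and ERGIC3 are the filled points left of 0, and the 30 filled points right of 0 include every role except the SAR1 exchange factor.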

How the data were processed

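The authors' deposited table holds unscaled read counts for each gene in each of the 6 libraries, judged from its whole numbers and unequal totals. The submitters' processing notes name cutadapt 1.16, STAR 2.5.2a, featureCounts 1.6.2, DESeq2 1.28.1 and hg38; annotation release, strandedness and how multi-mapped reads were handled are not given in the sources used here. All 58735 identifiers matched GENCODE 29 (GRCh38), which supplied positions, lengths, GC content and introns.

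Counts were fitted in R 4.3.3 with edgeR 4.0.16 (filterByExpr minimum count 10, TMM, robust quasi-likelihood, group alone) over all 16591 genes passing the filter, with Benjamini-Hochberg adjustment over all of them and a threshold of 0.05. SE was taken from the log2 fold change and the F statistic (its ratio to the root of F). Per-kb levels are CPM per kilobase of merged exons. Alternatives included DESeq2 1.42.0 and limma 3.58.1. The smallest visible level, 3 counts, was 0.0401 to 0.0590 CPM, for counting error only.

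Genes given with full values changed at least 2-fold, rose or fell most in their complex, or belong to a listed paralog pair; partner genes are the 5 largest changes, and PREB, ARFGAP3, MCFD2 and others were chosen after their values were seen. Transcript lengths for family shares or coatomer levels, the intron limits and their counts under other scalings were also added after seeing the data. The members and lists were chosen with earlier results of these data known.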

Additional observations from a re-analysis of the deposited data

How the results depend on the processing

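The settings were TMM against RLE factors, total counts alone and cyclic loess (limma), edgeR against DESeq2 and limma-voom, other count filters, a test against a 1.5-fold change, a replicate block, and the omission of each library. RLE factors and limma-voom moved no call among the 54 single genes followed (48 transport genes, SON and 5 partner genes). The test against 1.5-fold called 18 of the 48 transport genes, 13 higher and 5 lower. It called 6126 of all 16591 genes tested, 2419 of them higher. By complex it gave 3 COPII, 4 COPI, 4 TMED, 2 TRAPP and 0 KDEL receptor genes higher. Those lower were 1 COPII, 1 COPI, 1 TMED, 2 TRAPP and 0 KDEL receptor genes. Of the partner genes it called 18 higher and 2 lower. With total counts alone 4 TRAPP and 1 KDEL receptor genes were higher, and 3 COPII, 1 KDEL receptor and 7 partner genes lower; under cyclic loess 0 KDEL receptor genes were higher, and 3 COPII, 1 KDEL receptor and 8 partner genes lower. COPII genes lower were 2 with a mean count of at least 50 and 1 to 3 when a library was left out. The median log2 fold change of the transport genes (0.30) was 0.10 with total counts alone, 0.24 with the mean count filter, 0.18 under cyclic loess and 0.25 to 0.33 when a library was left out.

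Signs reversed with total counts alone for TRAPPC3 (-0.047), SEC24B (-0.13), COPG2 (-0.082), KDELR1 (-0.028) and TRAPPC2B (-0.16), and under cyclic loess for TRAPPC3 (-0.045), SEC24B (-0.12), SEC16A (-0.047), KDELR1 (-0.17) and TRAPPC5 (0.010). TRAPPC2B also reversed with the mean count filter (-0.022), without siControl replicate 3 (-0.0046) and without siSON replicate 1 (-0.017), as did KDELR3 (0.030) and the TMED5 to TMED7 ratio (0.013) without siSON replicate 1, the ratio ranging from -0.090 to 0.013, KDELR3 from -0.14 to 0.030 and TRAPPC2B from -0.017 to 0.13 when a library was left out. The cause was not tested. The TRAPPC3 call was also lost with DESeq2, with no filter, with the mean count filter, against 1.5-fold and without any of 4 libraries.

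With the replicate block, 31 transport genes were higher and 10 lower, 2 of these 10 COPII genes. Of all 16591 genes tested 12313 were then called, 6052 of them higher. TRAPPC9 (0.23, edgeR adjusted p 0.0346) and SEC31B (-0.40, adjusted p 0.0249) were added and no call was lost. The replicate numbers are not shown to mark a shared culture or day. Deviations of same-numbered libraries correlated at 0.046 to 0.19 on edgeR's log2 CPM and 0.17 to 0.37 on log2 of CPM plus 1, and each library correlated best with its own number on both scales. For the paralog ratios a replicate block cannot move the differences (TMED5 to TMED7, -0.037), because each replicate number occurs once in each group, so it is no check on them. Counts of 6 or fewer, as for SEC16B and TRAPPC6A in siSON, limit those genes.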
